A study of Caenorhabditis elegans with 6 samples.

Results

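A set of 10 genes was followed that bind, store or carry metal ions in the nematode Caenorhabditis elegans, namely the metallothionein genes mtl-1 and mtl-2, the ferritin genes ftn-1 and ftn-2, the divalent metal importer genes smf-1, smf-2 and smf-3, and the zinc transporter genes cdf-1, cdf-2 and ttm-1. They were taken by symbol from the 46904 gene IDs counted in each library, and all 10 were found under a single ID. The set was assembled with results of these libraries known, partly because ftn-1 and mtl-2 stood higher with caffeine. The values of ftn-1 and mtl-2 are therefore given as a description with no test, and the other 8 genes were listed by function.

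The caffeine group was N2 hermaphrodites, the laboratory wild type, held on plates with 10 mM caffeine, and the control group was N2 hermaphrodites on plates with 0 mM. Both groups went onto their plates at the last larval stage, stayed 72 h at 25 °C with OP50 bacteria as food, and were collected at day 3 of adulthood. Each group had 3 libraries of polyadenylated RNA from whole animals, each from about 300 worms. Since whole worms were used, fewer cells of a type and less RNA per cell cannot be told apart.

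Metallothioneins are small cysteine-rich proteins that bind zinc, copper and cadmium, and worms are known to induce them in the intestine when metal is in excess. Ferritins form a shell in which iron is stored, and the intestinal ferritin FTN-1 is known to be repressed when iron is scarce, through the hypoxia factor HIF-1. SMF proteins belong to the NRAMP family, which brings manganese and iron into cells, and the CDF family moves zinc out of the cytosol, either across the plasma membrane or into storage granules of the gut.

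The libraries held between 40417780 and 40746556 counts, and no pair of files was identical. For each of 6 tissues, 10 marker genes were listed and their CPM summed, CPM being the count scaled to a common library total. The intestinal sum lay between 2346 and 2575 CPM with caffeine and between 2284 and 2649 CPM in control, with 2 of its 10 tested genes called higher and 5 lower. Of all tested genes, 13.8% were called higher and 10.5% lower, which is the background for each of these counts. The intestinal markers called higher were vha-6 and asp-1, with log2 fold changes of 0.91 and 0.36. Those called lower were pept-1, act-5, elt-2, cpr-6 and erm-1, at -1.15, -1.12, -0.69, -0.41 and -0.34. asp-1 and cpr-6 had the highest means of this list, so the overlap of the sums does not show that its single genes were steady. The germline sum was 7994 to 10012 CPM with caffeine and 9975 to 10244 CPM in control (0 of 10 higher, 1 lower), and the hypodermal sum was 357 to 369 CPM with caffeine and 282 to 336 CPM in control (1 of 10 higher, 0 lower). Muscle markers summed to 711 to 911 CPM with caffeine and 596 to 677 CPM in control (3 of 10 higher, 0 lower), and neuronal markers to 289 to 299 CPM with caffeine and 249 to 256 CPM in control (6 of 10 higher, 0 lower). Sperm markers, of which 9 had a single ID and 7 were tested, summed to 4.29 to 8.56 CPM with caffeine, against 5.6, 5.82 and, in control library 2, 21.7 CPM (0 higher, 1 lower). No marker was at 0 in all libraries, and the part of these tissue levels in the changes below was not tested.

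Of the 10 genes, 9 had enough counts to be tested, and smf-2 had not. Among the 7 tested genes outside the choice, mtl-1, ftn-2 and cdf-2 were called higher with caffeine, ttm-1 was called lower, and smf-1, smf-3 and cdf-1 did not pass. A gene was called at an adjusted p under 0.05 from the edgeR quasi-likelihood fit to all 14200 tested genes, and in that fit 24.3% of all genes were called, 13.8% higher and 10.5% lower. Because 2 of the genes were chosen on this comparison, nothing is read from the 4 calls set against that background. The median log2 fold change was 0.39 for these 7 genes and 0.00 for all tested genes. The caffeine and control libraries did not overlap in 3 of the 7 tested genes outside the choice, mtl-1, ftn-2 and cdf-2, a share near the 44.3% of all tested genes. In these 3 genes caffeine lay wholly above control, as it did in 23.3% of all tested genes. The groups also did not overlap in ftn-1 and mtl-2, which follows from their choice.

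**Figure D1:**
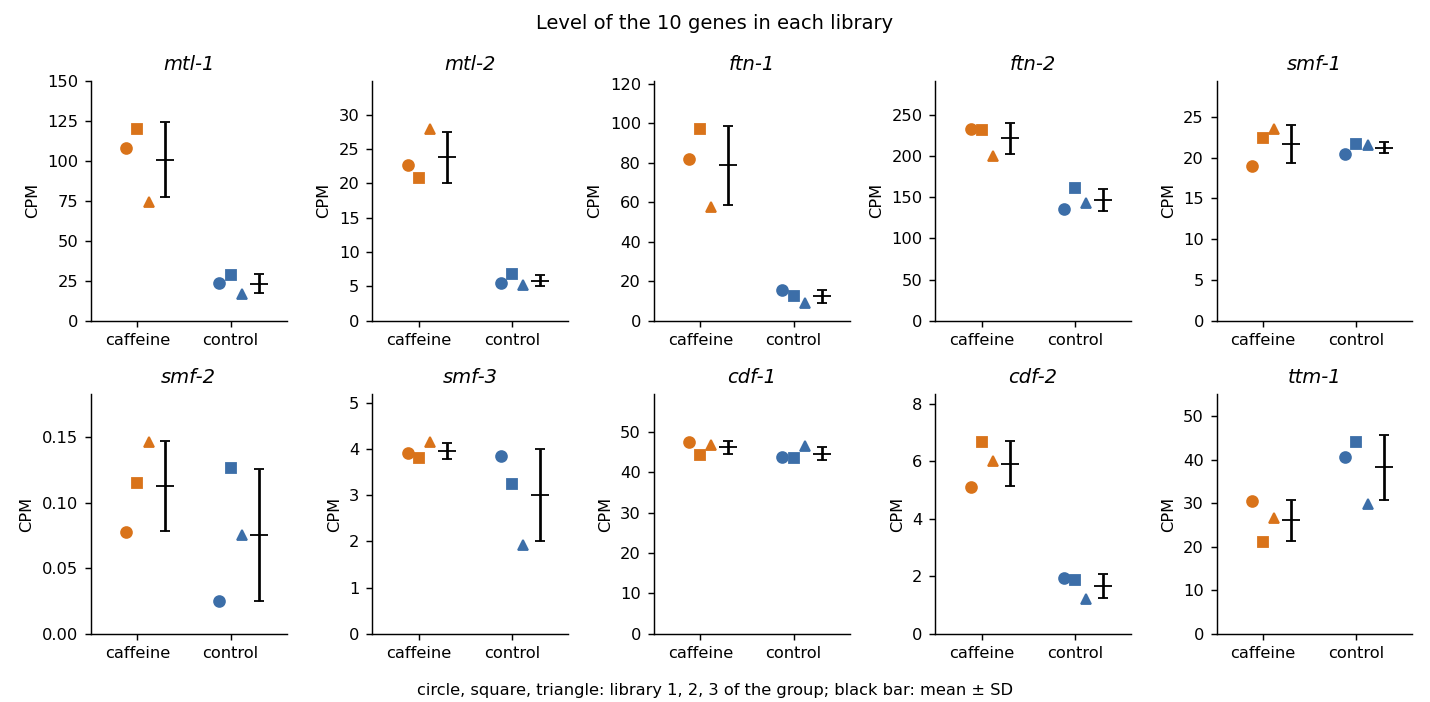
Level of each of the 10 genes in CPM (vertical axes, linear, each with its own scale) in the 3 caffeine libraries (orange, left) and the 3 control libraries (blue, right), with the mean and SD as black bars. The caffeine points of mtl-1, mtl-2, ftn-1, ftn-2 and cdf-2 lie above every control point, while those of the other genes overlap with control.

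The metallothionein gene mtl-1 (WBGene00003473; chromosome V, 6691371 to 6691863, minus strand, WBcel235) had 108, 120 and 74.4 CPM with caffeine, against 23.8, 28.8 and 16.7 CPM in control. Its lowest caffeine library was 2.59 times its highest control library. The mean was 101 ± 23.4 CPM with caffeine and 23.1 ± 6.05 CPM in control (SD, n = 3 each), a log2 fold change of 2.12 (SE 0.22) or 4.36-fold, with an edgeR adjusted p of 0.000455. The rise passed in all 14 alternative fits, with log2 fold changes between 1.93 and 2.31.

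The second metallothionein gene, mtl-2 (WBGene00003474; chromosome V, 14018270 to 14018673, minus strand), which is known for induction by cadmium in the intestine, had 22.7, 20.7 and 27.9 CPM with caffeine, against 5.55, 6.75 and 5.2 CPM in control. Every caffeine library held at least 3.06 times the level of every control library. The log2 fold change was 2.02, or 4.07-fold, given here as a description. Both metallothionein genes are short, with 373 exonic bases in mtl-1 and 347 in mtl-2, and each has 1 annotated transcript of 2 exons.

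The proportion of the 2 metallothionein genes overlapped between the groups. Per kb of exon, mtl-1 stood 4.43, 5.38 and 2.48 times above mtl-2 in the caffeine libraries, against 4.0, 3.96 and 2.99 times in the control libraries. The lowest of these ratios was that of caffeine library 3, which had the least mtl-1 and the most mtl-2 of the caffeine group. Together the metallothionein genes gave 131, 140 and 102 CPM with caffeine and 29.4, 35.5 and 21.9 CPM in control. These sums and ratios contain mtl-2 and are given with no test.

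Among the ferritins, ftn-1 (WBGene00001500; chromosome V, 7546468 to 7547579, minus strand) had 81.8, 97.1 and 57.4 CPM with caffeine, against 15.6, 12.3 and 9.19 CPM in control. No libraries overlapped, and the lowest caffeine library held 3.67 times the highest control library. The log2 fold change was 2.67, or 6.37-fold. As one of the values used to choose the set, it carries no test here.

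The more widely expressed ferritin gene ftn-2 (WBGene00001501; chromosome I, 3680180 to 3680927, minus strand) had 233, 232 and 200 CPM with caffeine, against 136, 161 and 143 CPM in control. The groups did not overlap, although the lowest caffeine library was only 1.24 times the highest control library. The mean was 222 ± 18.8 CPM with caffeine and 147 ± 12.7 CPM in control (SD, n = 3 each), a log2 fold change of 0.59 (SE 0.08) or 1.51-fold, with an edgeR adjusted p of 0.00194. It passed in all 14 alternative fits, where the adjusted p was at most 0.0111.

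The proportion of the 2 ferritin genes did not overlap between the groups. Corrected for exon length, ftn-2 stood 2.66, 2.22 and 3.24 times above ftn-1 in the caffeine libraries, against 8.12, 12.2 and 14.5 times in the control libraries. Of the summed ferritin CPM per kb, ftn-1 made up 27.3%, 31% and 23.6% with caffeine and 11%, 7.56% and 6.44% in control. The summed ferritin level was 315, 329 and 258 CPM with caffeine and 152, 173 and 153 CPM in control. These sums and shares contain ftn-1 and are given with no test.

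No importer gene passed the test. smf-1 (WBGene00004876; chromosome X, 6719669 to 6723066, minus strand), an NRAMP-type importer of manganese and iron, had 19, 22.4 and 23.5 CPM with caffeine, against 20.4, 21.7 and 21.5 CPM in control. The control values lay within the range of the caffeine values. The log2 fold change was 0.03 (SE 0.09), the 95% interval of the fold ran from 0.879 to 1.19, and the edgeR adjusted p was 0.832.

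smf-3 (WBGene00004878; chromosome IV, 2618869 to 2625503, plus strand), known as the main intestinal importer of iron, had 3.92, 3.81 and 4.15 CPM with caffeine, against 3.86, 3.25 and 1.92 CPM in control. The caffeine libraries lay close together, and the spread in control came mostly from the low value of control library 3. The log2 fold change was 0.39 (SE 0.23) with a 95% interval of the fold from 0.906 to 1.9 and an edgeR adjusted p of 0.245. Without control library 3 the log2 fold change was 0.15 and the adjusted p 0.53.

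smf-2 (WBGene00004877; chromosome X, 6716195 to 6718695, minus strand) had 3, 5 and 6 counts with caffeine and 1, 5 and 3 counts in control, below the filter on low counts. It lies 973 bases from smf-1 and overlaps nas-11 on the opposite strand, a gene with 3562 to 4803 counts in a library. Whether the counting used strand is not given in the sources used here, so even these few reads are uncertain. No other of the 10 genes overlapped an annotated gene, and the values of all 10 were whole numbers in every library, with no fractional reads.

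The zinc transporter genes differed in direction. cdf-2 (WBGene00011821; chromosome X, 12464640 to 12466917, minus strand) encodes the transporter that loads zinc into the lysosome-related granules of intestinal cells. It had 5.1, 6.67 and 6.0 CPM with caffeine, against 1.93, 1.89 and 1.2 CPM in control. The lowest caffeine library held 2.64 times the highest control library. The mean was 5.92 ± 0.784 CPM with caffeine and 1.67 ± 0.411 CPM in control (SD, n = 3 each), a log2 fold change of 1.82 (SE 0.20) or 3.54-fold, with an edgeR adjusted p of 0.000619. It rested on 198, 289 and 247 counts with caffeine and on 78, 75 and 48 counts in control, and passed in all 14 alternative fits.

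ttm-1 (WBGene00012712; chromosome III, 12952969 to 12966995, minus strand), which encodes a transporter that exports zinc from intestinal cells, had 30.4, 21.1 and 26.6 CPM with caffeine, against 40.7, 44.0 and 29.9 CPM in control. The groups overlapped slightly, since caffeine library 1 lay above control library 3. The mean was 26.0 ± 4.69 CPM with caffeine and 38.2 ± 7.35 CPM in control (SD, n = 3 each), a log2 fold change of -0.55 (SE 0.17), with an edgeR adjusted p of 0.0457. That adjusted p became 0.132 without caffeine library 2, 0.105 without caffeine library 3, 0.124 without control library 1 and 0.147 without control library 2, so the call was lost in these fits. The log2 fold change lay between -0.71 and -0.42 in all 14 alternative fits. The gene has 3 annotated transcripts, and the deposited values per gene do not separate them.

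cdf-1 (WBGene00000393; chromosome X, 6499916 to 6505143, minus strand), whose product exports zinc toward the body side of intestinal cells, had 47.5, 44.4 and 46.7 CPM with caffeine, against 43.9, 43.6 and 46.5 CPM in control. Its replicates lay close together, with a coefficient of variation of 3.45% with caffeine and 3.65% in control, and the groups overlapped. The log2 fold change was 0.05 (SE 0.06), the 95% interval of the fold ran from 0.939 to 1.14, and the edgeR adjusted p was 0.583. The 3 zinc transporter genes together gave 83.0, 72.1 and 79.2 CPM with caffeine and 86.5, 89.4 and 77.7 CPM in control, and these sums overlapped.

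**Figure D2:**
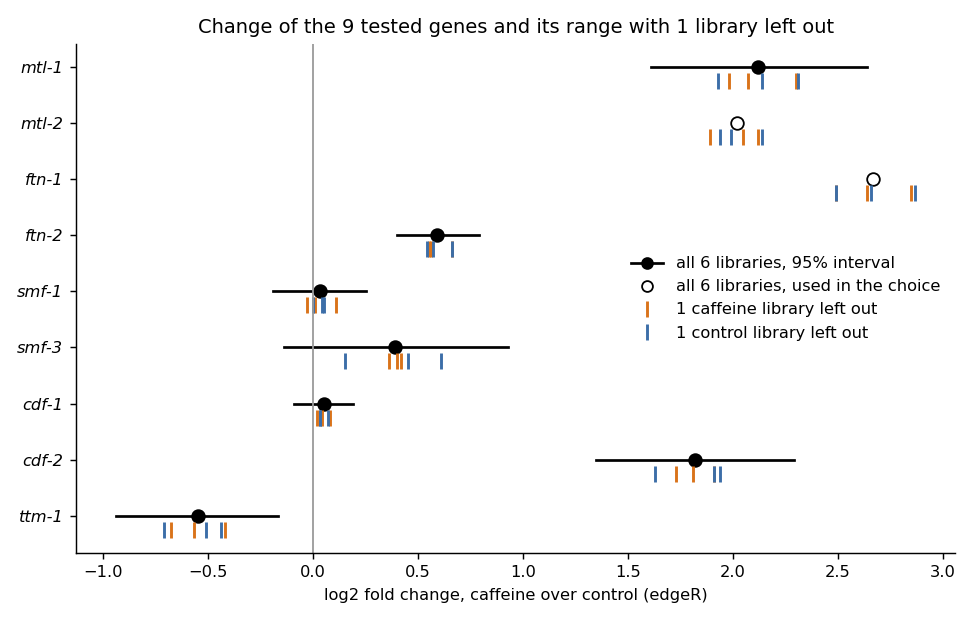
Log2 fold change, caffeine over control, of the 9 tested genes (horizontal axis) with all 6 libraries (black points, 95% interval as line; open points without interval for ftn-1 and mtl-2, used in the choice) and with 1 caffeine library (orange ticks) or 1 control library (blue ticks) left out. The estimates for mtl-1, ftn-2 and cdf-2 stay above 0 in every fit, while smf-1 lies between -0.03 and 0.11 and ttm-1 between -0.71 and -0.42. With 1 library left out, smf-3 (0.15 to 0.61) and cdf-1 (0.02 to 0.08) also stay above 0, although neither gene passed. Those for ftn-1 and mtl-2 also stay above 0, which is not independent of their choice.

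Leaving out single libraries moved the genes unequally. For cdf-2 the log2 fold change ran from 1.63 to 1.94 and for ftn-2 from 0.54 to 0.66. It ran from 2.49 to 2.87 for ftn-1 and from 1.89 to 2.14 for mtl-2. These 2 ranges are a description, since both genes were used in the choice. smf-3 had the widest range, from 0.15 to 0.61. The replicate scatter also differed between genes, with coefficients of variation of 25.4% with caffeine and 26.0% in control for ftn-1 and of 8.47% with caffeine and 8.65% in control for ftn-2.

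Levels were then ordered per kb of exon, an approximate comparison of genes of different length. The length was that of all annotated exons of a gene pooled over its transcripts, and fragment size was not considered. With caffeine the order was ftn-2 (341 ± 28.8 CPM per kb), mtl-1 (270 ± 62.8), ftn-1 (130 ± 33.0), mtl-2 (68.4 ± 10.7), cdf-1 (19.5 ± 0.672), ttm-1 (13.9 ± 2.51), smf-1 (11.7 ± 1.27), cdf-2 (4.38 ± 0.58) and smf-3 (2.04 ± 0.0904; SD, n = 3). Of these neighbours, ftn-2 and mtl-1 overlapped in their libraries, as did ttm-1 and smf-1. In control the order was ftn-2 (226 ± 19.5 CPM per kb), mtl-1 (61.9 ± 16.2), ttm-1 (20.5 ± 3.94), ftn-1 (20.4 ± 5.31), cdf-1 (18.9 ± 0.688), mtl-2 (16.8 ± 2.35), smf-1 (11.5 ± 0.395), smf-3 (1.55 ± 0.51) and cdf-2 (1.24 ± 0.304; SD, n = 3). There the 4 genes ttm-1, ftn-1, cdf-1 and mtl-2 formed a chain of overlapping neighbours, and smf-3 overlapped cdf-2.

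Among the 14189 tested genes with an annotated length, ftn-2 ranked 296 in level per kb with caffeine and 455 in control. mtl-1 ranked 373 with caffeine and 2670 in control, and ftn-1 ranked 979 with caffeine and 5518 in control. The genes ftn-2, mtl-1, ftn-1 and mtl-2 held the first 4 places within the set with caffeine. The rise of ftn-1 and mtl-2 was used in the choice, so their places are only a description. In control, the libraries of ftn-1 and mtl-2 overlapped those of cdf-1 and ttm-1.

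**Figure D3:**
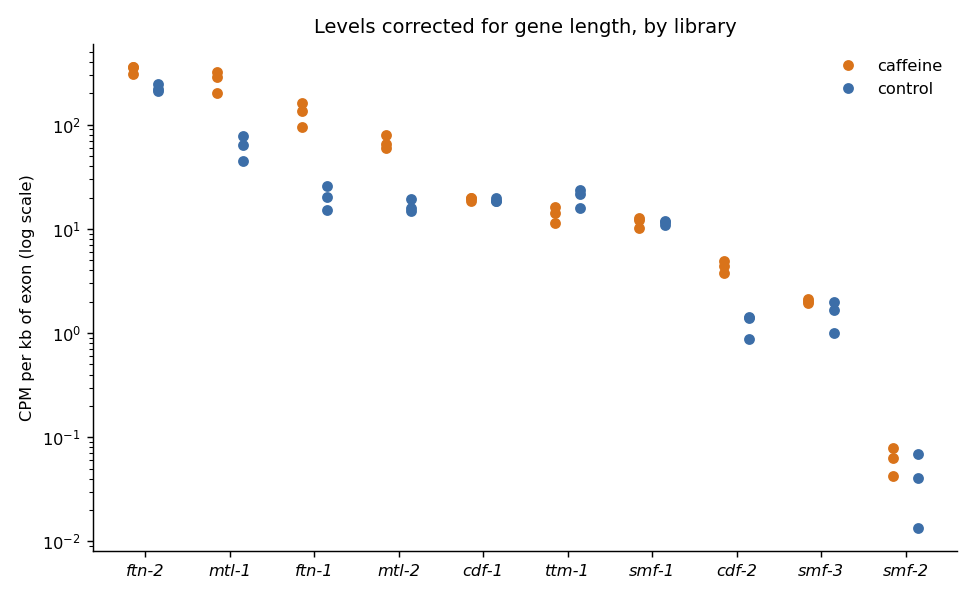
Level per kb of exon (vertical axis, log scale, CPM per kb) of the 10 genes in each caffeine library (orange, left of each pair) and control library (blue, right), ordered by the caffeine mean. With caffeine ftn-1 lies between 94.8 and 160 and mtl-2 between 59.6 and 80.3, against 15.2 to 25.8 for ftn-1 and 15 to 19.4 for mtl-2 in control.

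The other genes with the most similar pattern were sought among 9812 genes averaging 100 counts or more, as the root mean square difference of log2 CPM over the 6 libraries after centring each gene on its mean. For ftn-1 the nearest were smd-1 (0.286), which encodes S-adenosylmethionine decarboxylase, lips-10 (0.291), a lipase-related gene, and ugt-63 (0.294), a glucuronosyltransferase gene. smd-1 had values that were not whole. For mtl-2 they were daao-1 (0.103), a D-amino acid oxidase gene, C30G12.2 (0.114) and F17A9.5 (0.126). F17A9.5 overlaps cwf-19L1 on the opposite strand, a gene with up to 5181 counts in a library, so part of its counts is uncertain. Because the measure includes the change between groups, it partly restates the log2 fold change. For ftn-1 and mtl-2 that change was used in the choice. Within the set, the same measure was smallest between cdf-1 and smf-1, at 0.116, with log2 fold changes of 0.05 and 0.03. It was 0.298 between cdf-1 and ftn-2, 0.267 between cdf-2 and mtl-2, 0.289 between cdf-2 and mtl-1, 0.325 between ftn-1 and mtl-1 and 0.366 between mtl-1 and mtl-2. Between the 2 ferritin genes it was 1.08.

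Other metal genes were examined in 5 lists, 85 symbols in all, of which 79 had a single ID and 77 were tested. Of these 77, 16 were called higher and 11 lower in the same edgeR fit (13.8% and 10.5% of all tested genes), with a median log2 fold change of 0.01. The count of higher genes stayed between 13 and 18 in the alternative fits. The count of lower genes became 4 without caffeine library 2, 4 without caffeine library 3, 5 without control library 1, 2 without control library 2 and 4 without control library 3, and 6 with upper-quartile scaling and with library totals only. Without caffeine library 1 it was 9. The 5 lists were chosen with earlier results of these data known. No enrichment is therefore read from the counts of any list, here or below, set against the shares of all tested genes.

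On the iron and haem list, 7 of 16 tested genes were called higher and 0 lower, where 13.8% of all tested genes were higher and 10.5% lower, with a median log2 fold change of 0.15. hrg-7, which encodes a secreted signal of haem status between the intestine and neurons, averaged 243 ± 13.6 CPM with caffeine and 51.4 ± 6.25 CPM in control (SD, n = 3 each), a log2 fold change of 2.24 (SE 0.09) with an edgeR adjusted p of 5.56e-06. hrg-4, the haem importer of the intestinal surface, averaged 7.81 ± 1.8 CPM with caffeine and 2.67 ± 0.106 CPM in control, a log2 fold change of 1.55 (SE 0.18) with an edgeR adjusted p of 0.000677. hrg-3, which encodes a carrier of maternal haem to embryos, had 20, 31 and 45 counts with caffeine and 6, 8 and 5 counts in control, a log2 fold change of 2.27 (edgeR adjusted p 0.00558).

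hrg-9, a haem trafficking gene, had 61, 63 and 50 counts with caffeine and 28, 25 and 31 counts in control, a log2 fold change of 1.01 (edgeR adjusted p 0.0186). Its adjusted p was 0.0595 without caffeine library 2, 0.0603 without control library 1 and 0.0607 without control library 2. The remaining higher genes were aco-1, mrp-5 and hrg-1, with log2 fold changes of 0.38, 0.36 and 0.64, and hrg-1 was lost without caffeine library 1 or 3 and without control library 1 or 3. aco-1 encodes the cytosolic aconitase related to the mammalian iron regulatory protein. The ferroportin-related genes fpn-1.1 and fpn-1.2, the mitochondrial iron carrier gene mfn-1 and the frataxin gene frh-1 did not pass, with log2 fold changes between -0.12 and 0.14. Nor did hrg-2 and hrg-6, at -0.25 and -0.06, and hrg-5 had too few counts to be tested. hrg-3 overlaps F58E6.11 and hrg-7 overlaps C15C8.7 on the opposite strand, so part of their counts is uncertain.

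On the zinc list, 3 of 17 tested genes were called higher and 2 lower, against 13.8% and 10.5% of all tested genes, with a median log2 fold change of 0.01. zipt-2.3, a ZIP-family zinc transporter gene, averaged 2.91 ± 0.466 CPM with caffeine and 1.34 ± 0.358 CPM in control (SD, n = 3 each), a log2 fold change of 1.12 (SE 0.24) with an edgeR adjusted p of 0.0124. zipt-13 had the smallest adjusted p of the list, 0.00214 in edgeR, at a log2 fold change of 0.64, and zipt-2.1 was higher by 0.56. The lower genes were zipt-2.4 and zipt-15, at -0.18 and -0.16. These were lost without each library except caffeine library 1, and with library totals only their edgeR adjusted p was 0.212 and 0.228. zipt-2.3 overlaps kqt-3 on the opposite strand.

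Among heavy metal response genes, 2 of 12 tested genes were called higher and 2 lower, against the same shares of all tested genes, with a median log2 fold change of 0.14. cdr-1, a gene known for strong induction by cadmium in the intestine, had 5983, 11721 and 8529 counts with caffeine, against 83, 59 and 22 counts in control. It averaged 211 ± 58.2 CPM with caffeine and 1.36 ± 0.76 CPM in control (SD, n = 3 each), a log2 fold change of 7.27 (SE 0.35) with an edgeR adjusted p of 1.21e-05, and it overlaps no annotated gene. Its relative cdr-6 was higher by 0.52, while cdr-2, cdr-4 and cdr-7 had log2 fold changes of 0.34, 0.09 and 0.32 and did not pass.

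kreg-1, a gene regulated by the stress kinase KGB-1, was lower, at 1.75 ± 1.04 CPM with caffeine and 8.26 ± 2.14 CPM in control (SD, n = 3 each), a log2 fold change of -2.25 (SE 0.37) with an edgeR adjusted p of 0.00412. Its counts were 114, 43 and 54 with caffeine and 339, 410 and 242 in control. The phytochelatin synthase gene pcs-1, which makes a metal-binding peptide, was lower by a log2 fold change of -0.25 (edgeR adjusted p 0.0376), and it was lost without each library except caffeine library 3, with an adjusted p of up to 0.123. The nuclear stress genes numr-1 and numr-2 shared identical values under 2 IDs, 6.34, 9.99 and 6.58 CPM with caffeine and 4.51, 4.33 and 7.82 CPM in control, and overlapped between the groups.

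On the list of copper and other divalent ions, 4 of 17 tested genes were called higher and 0 lower, where 13.8% of all tested genes were higher and 10.5% lower, with a median log2 fold change of 0.07. gtl-2, a TRPM channel gene of the excretory cell, had 91, 139 and 147 counts with caffeine and 59, 52 and 56 counts in control, a log2 fold change of 1.13 (edgeR adjusted p 0.00605). The magnesium transporter genes cnnm-2, cnnm-4 and cnnm-1 were higher by 0.97, 0.56 and 0.30 on the log2 scale, and cnnm-2 had the smallest adjusted p of the list at 0.00177 in edgeR. cnnm-1 passed in 7 of 14 alternative fits and was lost without each library except caffeine library 1. Other magnesium genes of the list did not pass, with log2 fold changes of -0.66 for cnnm-5, -0.08 for cnnm-3, -0.07 for gon-2 and 0.10 for gtl-1. The copper pump gene cua-1 and the copper chaperone gene cuc-1 had log2 fold changes of -0.02 and 0.07 and did not pass.

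**Figure D4:**
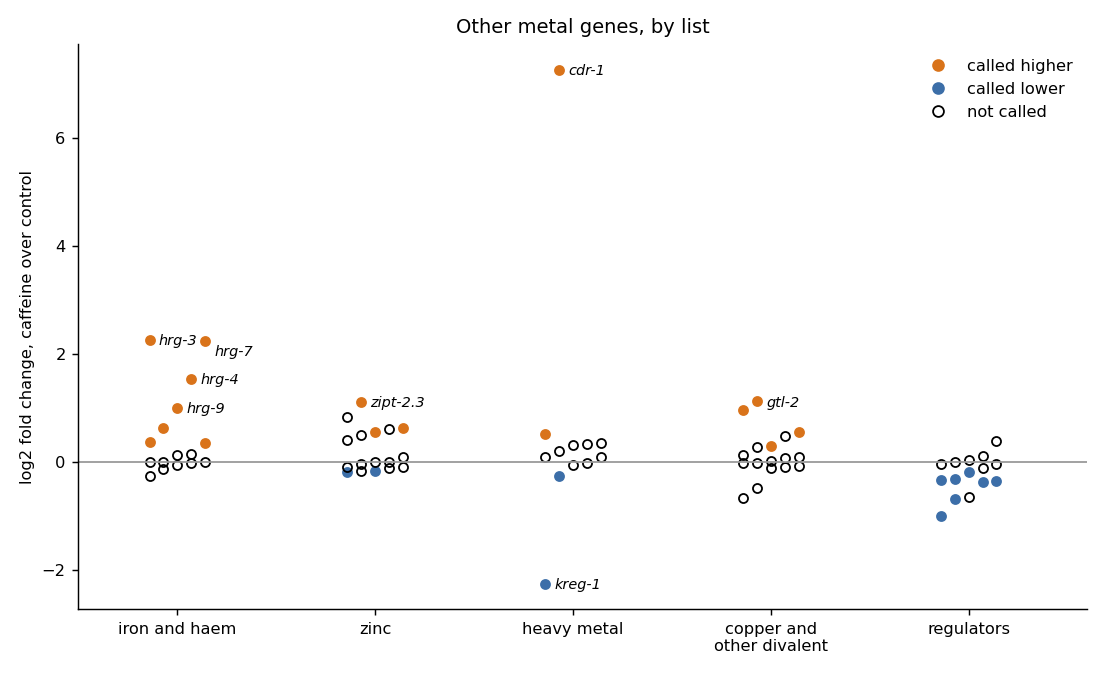
Log2 fold change, caffeine over control (vertical axis), of the 77 tested genes on 5 lists of other metal genes (horizontal axis; side offsets only separate the points), with genes called higher in orange, called lower in blue and not called as open circles. cdr-1 stands far above all others at 7.27, and every call on the list of regulators is below 0.

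Of 15 regulators known to act on metal genes, 0 were called higher and 7 lower, where 13.8% of all tested genes were higher and 10.5% lower, with a median log2 fold change of -0.18. pqm-1, which encodes a zinc-finger factor of stress and metabolic genes, averaged 29.5 ± 2.49 CPM with caffeine and 58.7 ± 6.41 CPM in control (SD, n = 3 each), a log2 fold change of -0.99 (SE 0.10) with an edgeR adjusted p of 0.000337, and it passed in all 14 alternative fits. elt-2, which encodes the main GATA factor of the intestine, averaged 7.47 ± 0.583 CPM with caffeine and 12.1 ± 2.79 CPM in control, a log2 fold change of -0.69 (edgeR adjusted p 0.0206). Its adjusted p was 0.0741 without caffeine library 2 and 0.0595 without control library 2. elt-2 also stands on the list of intestinal markers.

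The other lower regulators were mdt-15, kgb-1, daf-2, skn-1 and hsf-1, with log2 fold changes of -0.36, -0.34, -0.33, -0.31 and -0.18. Their edgeR adjusted p-values lay between 0.0152 and 0.0438, and with 1 library left out they reached 0.0548 for mdt-15, 0.105 for kgb-1, 0.0725 for daf-2, 0.0756 for skn-1 and 0.143 for hsf-1. mdt-15 was lost without caffeine library 3 and without control library 2, skn-1 without caffeine library 3 and without each control library, daf-2 and hsf-1 without each library except caffeine library 1, and kgb-1 without each of the 6 libraries. skn-1 overlaps 4 annotated genes, among them csn-5 and clec-178 on the opposite strand. The highest count of any of these in a library was 4137, so part of the skn-1 counts is uncertain. The iron and oxygen pathway genes hif-1, egl-9 and vhl-1 did not pass, with log2 fold changes of -0.11, -0.00 and 0.12. rhy-1, another gene of that pathway, had -0.64 at an edgeR adjusted p of 0.121. It was -0.90 with an adjusted p of 0.025 without control library 1, and -0.29 with an adjusted p of 0.351 without control library 3. hizr-1, the nuclear receptor that senses high zinc and activates cdf-2 and mtl-1, had a log2 fold change of 0.40 (SE 0.18, edgeR adjusted p 0.139) and did not pass. Its groups did not overlap, as in 44.3% of all tested genes, and no rise is read from that. elt-7, nhr-14 and daf-16 had -0.03, -0.03 and 0.04.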

How the data were processed

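The authors deposited 1 file of expected counts per gene for each of 6 libraries, per the file headers. These are estimated reads per gene, unscaled. STAR 2.7.0e, RSEM 1.3.1 and the builds WBcel235 and ce11 are named in the submitters' processing notes; the annotation and the use of strand are not given in the sources used here. A stranded kit was used, per the labels' protocols.

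The deposited counts were rounded and tested in edgeR 4.0.16 (R 4.3.3; filterByExpr, minimum count 10 and total 15; TMM factors 0.96 to 1.07; quasi-likelihood test; no covariate; Benjamini-Hochberg over 14200 genes). Standard errors were the log2 fold change divided by the square root of F, and intervals are 95%. CPM used the TMM factors. Symbols came from a gene name table (44017 of 46904 IDs), coordinates and exon lengths from Ensembl release 115 on WBcel235. Alternatives were 3 scalings, 2 filters, DESeq2 1.42.0, limma-voom 3.58.1, a replicate block and each library left out. The fit was tested on simulated counts with scatter from the fitted trend, not from each gene. It called 75.8% of 99 genes changed 2-fold, 94% of 100 genes changed 4-fold and 0.0725% of 13796 unchanged genes. The changed genes there were a far smaller share than the 24.3% called between the deposited groups. The rates at such a larger share were not tested.

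The 10 genes, the lists (iron and haem, zinc, heavy metal response, copper and other divalent ions, regulators, 6 tissue marker lists) and the tests were chosen with earlier results of these data known. Named from the 5 metal lists were called genes that changed by 1 or more on the log2 scale, the called gene with the smallest adjusted p, and all regulators, plus the 3 nearest patterns to ftn-1 and to mtl-2. Other genes on these lists were named after their values were seen. A motif search in promoters was planned and not run, since no sequences were used here.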

Additional observations from a re-analysis of the deposited data

How the results depend on the processing

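Of the 7 tested genes outside the choice, 3 were called higher in all 14 alternatives, and mtl-1, ftn-2 and cdf-2 each passed in every one. The 1 lower gene, ttm-1, was lost with the replicate block (0 called) and in 4 of 6 fits that left out a library (0 to 1 called). With 1 library left out, smf-1 ran from a log2 fold change of -0.03 (without caffeine library 3) to 0.11 (without caffeine library 1) and never passed. Over all genes, 1962 were higher and 1488 lower. With 1 library left out between 1209 (without control library 2) and 2264 (without caffeine library 1) were higher, and between 698 (without control library 2) and 2512 (without caffeine library 1) lower. On the 5 metal lists 11 genes were lower, against 6 with upper-quartile scaling, library totals only or the replicate block, 7 with no filter on low counts, and 2 to 9 with 1 library left out. The cause of these differences was not tested.

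Equal replicate numbers are not stated to mark a shared batch. The deviations of same-numbered caffeine and control libraries from their group means correlated across genes at -0.183, -0.155 and 0.249. Differently numbered libraries correlated at -0.339 to 0.433. With 3 libraries per group, these values cannot decide whether equal numbers mark pairs. With the replicate block 1496 genes were higher and 1074 lower. The block lost the calls of ttm-1 (adjusted p 0.0742), hrg-1, hrg-9, zipt-2.4, zipt-15, pcs-1, cnnm-1, hsf-1 and kgb-1. Genes near the low-count filter are limited by their few counts, and smf-2 lay below that filter.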
